A study of Mus musculus with 20 samples.

Results

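The TGF-beta group examined here holds 10 genes: the ligand genes Tgfb1, Tgfb2 and Tgfb3, the receptor genes Tgfbr1, Tgfbr2 and Tgfbr3, the ligand activator and target Thbs1, the feedback inhibitor Smad7, the matrix gene Ltbp2 and the target Tgfbi. They were matched by exact gene symbol, and 10 of 10 were present among the 15757 genes of the table. The list itself was chosen with earlier results of these data known. TGF-beta ligands are secreted in a latent form bound to their own propeptide and to latent TGF-beta binding proteins in the matrix. Once released, for example by integrins or by thrombospondin 1, they bind the type II receptor, which recruits and phosphorylates the type I receptor, and this in turn phosphorylates Smad2 and Smad3, which enter the nucleus with Smad4. In fibroblasts the pathway is known for driving matrix and contractile genes, and in reprogramming it is known as a barrier to the change from mesenchymal to epithelial form that precedes pluripotency.

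The cells were OG2 mouse embryonic fibroblasts of passage 2, a line of mice with a green fluorescent reporter under Oct4 control, infected with retroviruses for OSKM (Oct4, Sox2, Klf4 and Myc) and grown in iCD1 medium. All 10 groups are labelled as OSKM. A control arm also received an shRNA against luciferase (shLuci) and a knockdown arm an shRNA against Ddx10 (shDdx10), a DEAD-box RNA helicase of ribosome assembly. Both were sampled at days 0, 1, 3, 5 and 7 of reprogramming, with 2 libraries in each group of arm and day and 20 libraries in all. Replicates are described as biological, without a statement on separate cultures, so a p-value here speaks of the spread between these libraries, which may be technical. The sample labels do not tell shRNA constructs apart and name no rescue, so loss of Ddx10 and other effects of the shRNA cannot be told apart.

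Values are the authors' normalized read counts from messenger RNA sequencing, which summed to 15.67 to 21.26 M per library, with a depth of about 12.1 to 23.8 M reads. Replicates correlated across genes at r = 0.981 to 0.989, and the control libraries of day 1 differed from each other the most. Ddx10 itself was between 499.9 and 920.9 in the control libraries, and in the knockdown it was 61.8% of the control mean at day 0, 33.4% at day 1, 40.2% at day 3, 57.8% at day 5 and 65.0% at day 7, below every control library of the same day. None of the 17 fibroblast markers was at 0 in both control libraries of day 0, and their summed level was 601080 to 634380. The 14 macrophage and blood markers in the table summed to 3070 to 4378 there, and none was at 0 in both. In such bulk samples, fewer cells of a type and less RNA per cell cannot be told apart.

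A pair of sequences are shown first, those of the ligand genes Tgfb1 and Tgfb2. Whether they bear on the courses of these genes, described below, was not tested. They are the 250 bases before the annotated start, from RefSeq in GRCm38.p6, which is mm10, and the capitals mark a match to the CAGA box (CAGACA), a short element that Smad3 and Smad4 are known to bind.
Tgfb1, chr7:25686752-25687001, plus strand: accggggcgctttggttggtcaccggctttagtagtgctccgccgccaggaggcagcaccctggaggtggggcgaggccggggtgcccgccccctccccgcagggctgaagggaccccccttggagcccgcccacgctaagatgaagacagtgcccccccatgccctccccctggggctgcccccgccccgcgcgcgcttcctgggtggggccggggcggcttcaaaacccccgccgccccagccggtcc
Tgfb2, chr1:186705990-186706239, minus strand: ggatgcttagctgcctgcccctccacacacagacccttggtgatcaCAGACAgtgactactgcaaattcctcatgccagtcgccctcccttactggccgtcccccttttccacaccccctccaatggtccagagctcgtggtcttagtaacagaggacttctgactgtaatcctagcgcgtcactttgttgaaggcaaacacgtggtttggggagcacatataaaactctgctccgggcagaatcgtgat
The Tgfb1 window is 75.2% G and C and holds no match. The Tgfb2 window is 53.6% G and C, close to the median of 52.4% over 32851 promoter windows, and holds 1 match that begins 204 bases before the start. Windows were available for 6 of the 10 genes, 7 windows in all because Tgfbr1 has a pair of starts. The ligand gene Tgfb3 had none. CAGACA was in 2 of the 7, the other being the downstream start of Tgfbr1, against 17.1% of all promoter windows of the same length. The AP-1 site TGANTCA was in 0 of the 7 and in 6.75% of all windows, and the palindromic Smad element GTCTAGAC in 0 of the 7 and in 0.167% of all. Both strands were searched, no match overlapped another motif, and these matches are descriptions of letters, not of bound sites.

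**Figure D1:**
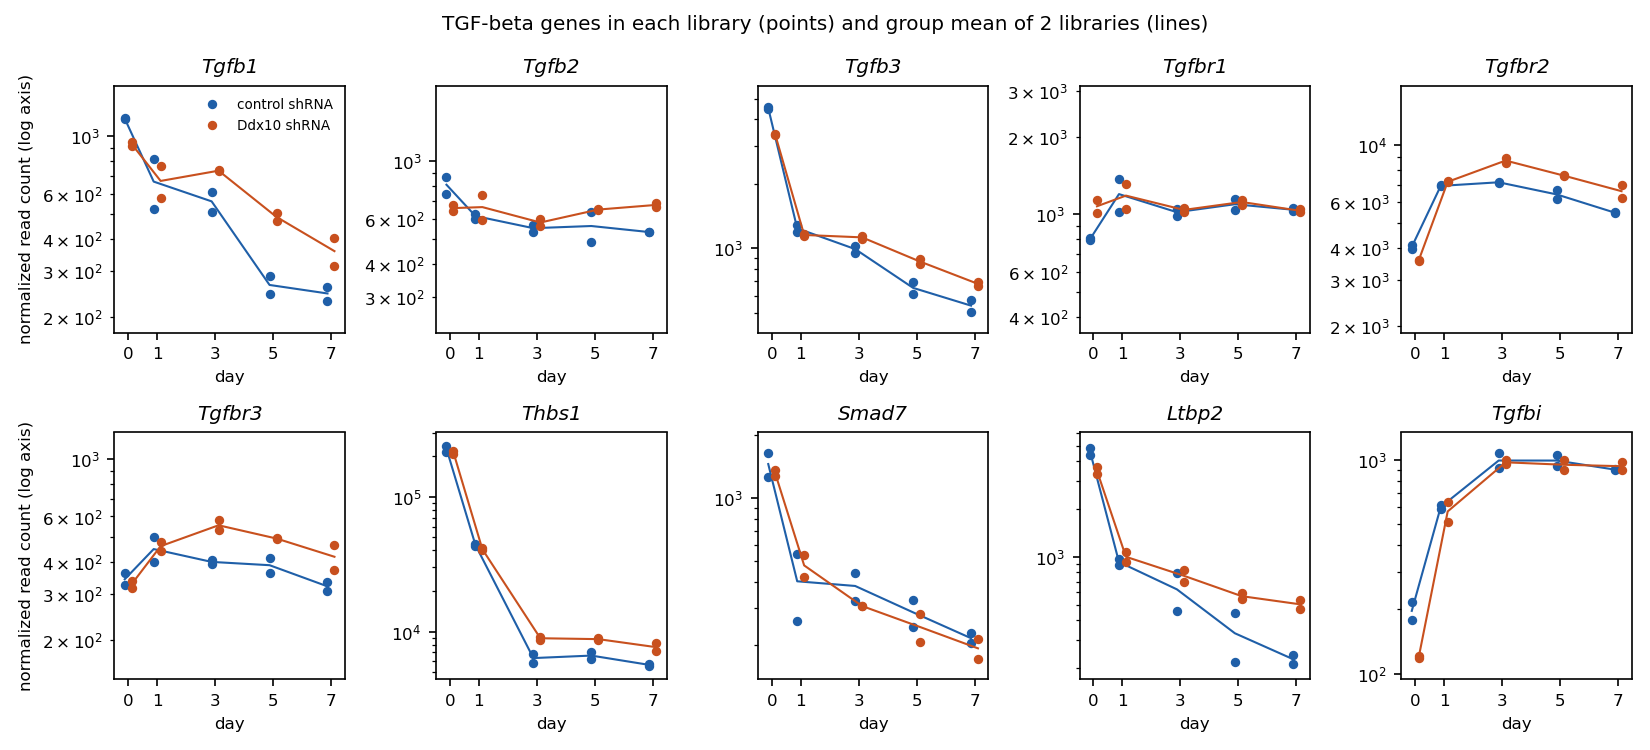
Normalized read count (log axis, each panel with its own range) against day for the 10 genes; points are single libraries, lines join the means of 2 libraries, control shRNA in blue and Ddx10 shRNA in orange. Tgfb3, Thbs1 and Ltbp2 dropped from day 0 to day 1 in both arms, Tgfbi climbed, and the orange points of Tgfb1 lie above the blue ones from day 3.

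How the group behaved over the days of reprogramming was read from the control arm. No group lacks OSKM, so effects of the factors, infection, medium and time in culture cannot be told apart. The ligand genes of the control arm fell by very different amounts. Tgfb3, on chromosome 12 (mm10 chr12:86056745-86079041, minus strand), was at 4461 and 4588 at day 0, 1284 and 1196 at day 1, 1028 and 955 at day 3, 609 and 697 at day 5, and 505 and 575 at day 7. No later library overlapped day 0, and the largest step was that to day 1. By day 7 the mean was 8.38 times below that of day 0 (log2 fold change -3.07, SE 0.082, limma adjusted p = 3.1e-14). Tgfb1, on chromosome 7 (chr7:25687002-25705077, plus strand), stood at 1166 and 1177 at day 0, 813 and 522 at day 1, 509 and 611 at day 3, 245 and 287 at day 5, and 262 and 231 at day 7. Its descent was slower, with a further step between days 3 and 5, and reached a log2 fold change of -2.25 (SE 0.185, limma adjusted p = 2.54e-08). Tgfb2, on chromosome 1 (chr1:186622792-186705989, minus strand), moved least, from 751 and 874 at day 0 to 601 and 628, 569 and 534, 488 and 637, and 532 and 534 at days 1, 3, 5 and 7. All 8 later values lay below both day 0 values, with a log2 fold change of -0.60 at day 7 (SE 0.124, limma adjusted p = 0.000389).

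The receptor genes did not follow the ligands. Tgfbr2, the type II receptor (chr9:116084293-116175360, minus strand), was at 4094 and 3979 at day 0, 6977 and 6925 at day 1, 7224 and 7131 at day 3, 6160 and 6726 at day 5, and 5519 and 5440 at day 7. It was thus highest at days 1 and 3 and still above day 0 at day 7, with log2 fold changes of 0.78 at day 1 (limma adjusted p = 5.18e-08) and 0.44 at day 7 (1.05e-05). Tgfbr1, the type I receptor (chr4:47353222-47414931, plus strand), rose from 795 and 808 at day 0 to 1020 and 1377 at day 1, the least precise of its pairs, and was at 1055 and 1031 at day 7 (log2 fold change 0.38, SE 0.122, limma adjusted p = 0.0112). Tgfbr3, betaglycan, a co-receptor that presents ligand (chr5:107106570-107289629, minus strand), was at 361 and 325 at day 0 and 309 and 335 at day 7. It passed the test at day 1 alone (0.38, limma adjusted p = 0.0197), on the control libraries of day 1 that differed most, and the call was lost without replicate 2 of control day 1 (0.22) or without replicate 2 of control day 0, with limma adjusted p of up to 0.209. The Tgfbr1 call at day 3 was lost without control day 3 replicate 1 or either control day 0 library (limma adjusted p up to 0.101), and that at day 7 without control day 7 replicate 1 (up to 0.0528).

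Among the genes around the ligand, Thbs1, thrombospondin 1 (chr2:118111876-118127133, plus strand), had by far the highest level. The control libraries were at 240506 and 215314 at day 0, 43160 and 44682 at day 1, 6844 and 5861 at day 3, 6223 and 7035 at day 5, and 5764 and 5544 at day 7. The mean fell 5.19-fold within a day and 35.9-fold by day 3, then stayed between 34.4 and 40.3 times below day 0. Ltbp2 (chr12:84783212-84876532, minus strand) encodes a matrix protein of the latent TGF-beta binding protein family that does not itself bind latent TGF-beta. It was at 4864 and 4389 at day 0, 972 and 886 at day 1, 793 and 456 at day 3, 219 and 442 at day 5, and 213 and 242 at day 7, a log2 fold change of -4.34 (SE 0.275, limma adjusted p = 5.83e-09). The fall was present at every later day, but its replicates differed widely at days 3 and 5. Of its exon bases, 764 overlap the antisense gene D030025P21Rik on the other strand, which is in the table too. Whether the counting used strand is not stated in the sources used here, so reads of the 2 genes cannot be told apart there.

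Smad7, an inhibitor that blocks the type I receptor and is induced by TGF-beta as feedback, was at 1650 and 1266 at day 0, 544 and 259 at day 1, 325 and 438 at day 3, 244 and 326 at day 5, and 226 and 203 at day 7. Like the ligand genes it was lower at each later day, and by day 7 it fell by 2.75 on the log2 scale (SE 0.284, limma adjusted p = 6.8e-07). Tgfbi, a secreted matrix protein named for its induction by TGF-beta (chr13:56609523-56639562, plus strand), did the opposite, from 178 and 216 at day 0 to 618 and 589 at day 1, 1077 and 913 at day 3, 936 and 1054 at day 5, and 905 and 901 at day 7. The rise was 3.07-fold at day 1 and 4.59-fold at day 7 (log2 fold change 2.20, SE 0.12, limma adjusted p = 1.38e-10). In these cells the target named for TGF-beta therefore moved in the opposite direction to Thbs1, Smad7 and the 3 ligand genes.

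In counts over the 10 genes against day 0 of the control, 4 rose and 6 fell at day 1, when 28.3% of all genes tested rose and 26.7% fell. Of these, Tgfb2 (-0.40, limma adjusted p = 0.0126) did not pass with library weights (0.0918) or in the compared libraries alone (0.0606). Tgfbr3 did not pass in the same fits (0.114 and 0.121). The value of Tgfb2 ranged from -0.51 to -0.29 when 1 of the 4 libraries was left out. At day 3 the counts were 3 and 6, beside 34.9% and 31.3% of all genes, at day 5 again 3 and 6, beside 37.7% and 32.5%, and at day 7 again 3 and 6, beside 38.6% and 33.7%. The median log2 fold change of the 10 genes at day 7 was -1.43, where that of all genes was 0.09. With quantile scaling the median of all genes was -0.08 instead, a shift that is smaller than every change of the group called at day 7. The summed values of the libraries also followed the day. They were 21.26 and 20.83 M at day 0 of the control and 15.67 M in both libraries of day 7. In the knockdown they were 20.12 and 20.33 M at day 0 and 15.68 and 15.76 M at day 7. Scaling to equal sums was not tried, so the smaller changes, as of Tgfbr1, Tgfbr2 and Tgfb2, depend on the scaling chosen. The knockdown arm showed 3 genes higher and 5 lower at day 7 than at day 0, beside 36.2% and 30.9% of all genes, with Tgfb2 at 0.04 and Tgfbr1 at -0.06 not passing the test. Of the 3 higher, Tgfbr3 (0.34, limma adjusted p = 0.0273) did not pass with quantile scaling (0.24, 0.116) or in the compared libraries alone (0.0622). Its value ranged from 0.18 to 0.51 when 1 of the 4 libraries was left out. Markers moved along with these changes. From day 0 to day 7 of the control, the summed level of 17 fibroblast markers went to 134850 to 141230, that of 8 smooth muscle markers from 204630 to 216110 down to 701 to 752, and that of 13 epithelial markers from 2348 to 2718 up to 26759 to 29145. Of the fibroblast markers 2 were called higher and 12 lower, beside 38.6% and 33.7% of all genes. The counts were 0 and 8 for smooth muscle and 12 and 0 for epithelial markers. The 14 macrophage and blood markers summed to 559 to 651 at day 1, with Tyrobp and C1qc at 0 in both libraries. The part of these cell type markers in the changes of the TGF-beta genes was not tested.

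**Figure D2:**
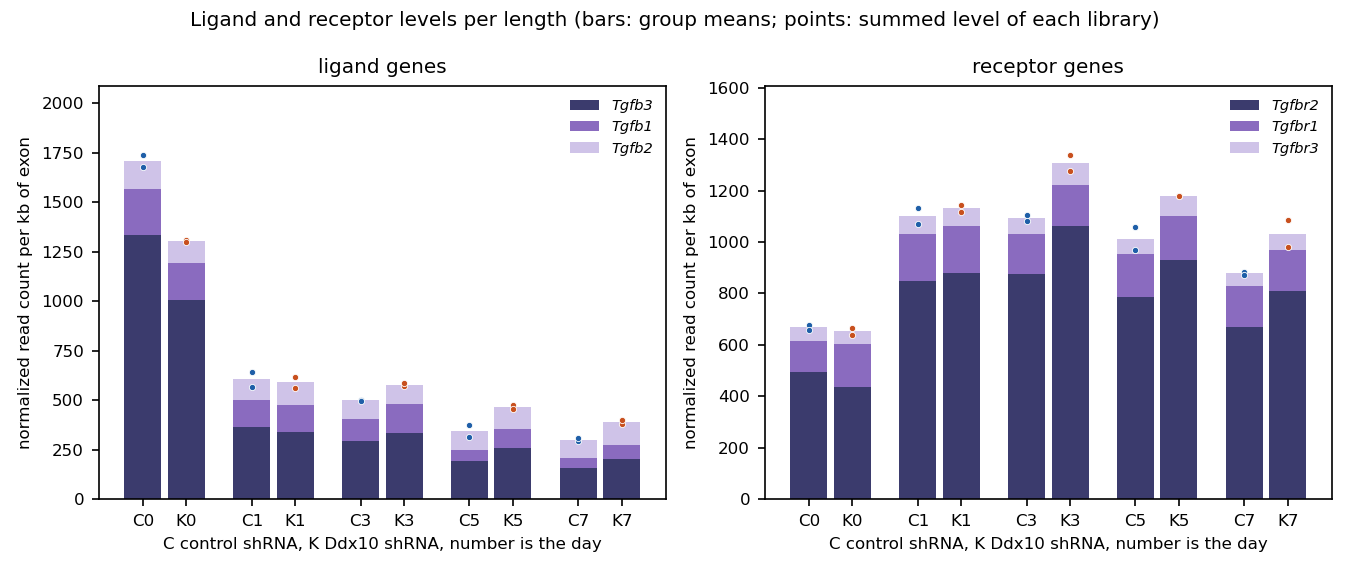
Summed normalized read count per kb of exon of the 3 ligand genes (left) and the 3 receptor genes (right) in each group; stacked bars are group means and points the sums of single libraries, C control shRNA and K Ddx10 shRNA with the day. In the control the ligand sum drops from 1710 to 300.4 while the receptor sum goes from 668.1 to 878.

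Levels between genes were compared per length, as normalized read counts per kb of exon. At day 0 of the control the order was Thbs1 at 37528 ± 2933 (SD, n = 2), Tgfb3 at 1337 ± 26.6, Ltbp2 at 565 ± 41.1, Tgfbr2 at 493 ± 9.99, Smad7 at 322 ± 60.1, Tgfb1 at 232 ± 1.56, Tgfb2 at 140 ± 15.0, Tgfbr1 at 123 ± 1.38, Tgfbr3 at 52.4 ± 3.95 and Tgfbi at 52.1 ± 7.13. The libraries of Tgfbr3 and Tgfbi overlapped. By day 7 Tgfbr2 (669 ± 6.84) and Tgfbi (239 ± 0.751) followed Thbs1 (931 ± 25.6) in the order. Tgfbr1 (159.6 ± 2.60) and Tgfb3 (159.5 ± 14.6) then lay together, Tgfb2 at 92.0 ± 0.270, and Tgfbr3, Tgfb1 and Smad7 together at 49.2 ± 2.89, 48.9 ± 4.25 and 47.5 ± 3.57, while Ltbp2 was lowest at 27.8 ± 2.56. The ligand pool shrank and changed its make-up. Tgfb3 held 78.2% ± 0.418 of the summed ligand level at day 0 and 53.1% ± 2.98 at day 7 in the control, while Tgfb2 went from 8.19% ± 0.669 to 30.6% ± 0.990 (SD, n = 2). In the knockdown the shares at day 7 were 51.7% ± 0.557 and 30.1% ± 2.03, so both arms ended with a similar mix at different sums, 300.4 ± 10.6 per kb in the control and 390.1 ± 14.4 in the knockdown. Tgfbr2 kept the larger part of the receptor sum throughout, from 73.8% at control day 0 to 80.1% at control day 3, and 67.1% to 81.3% over the same days of the knockdown.

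**Figure D3:**
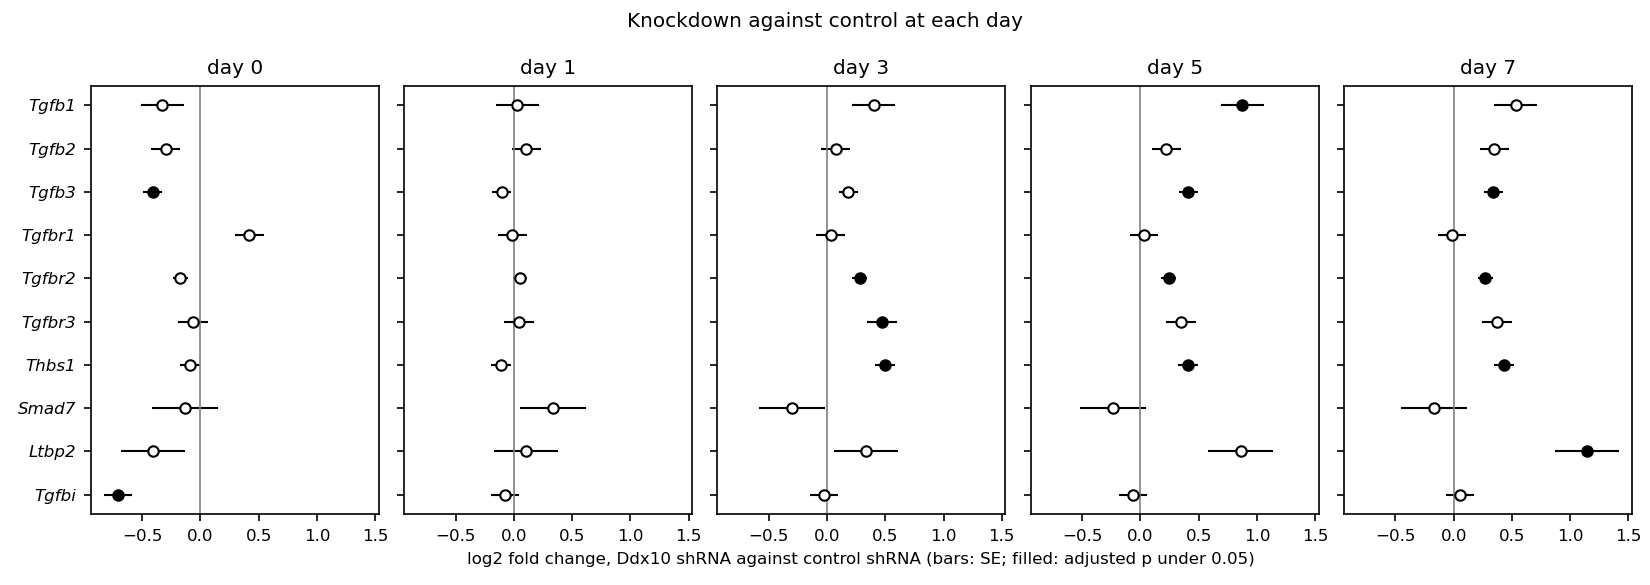
Log2 fold change of the 10 genes in the Ddx10 shRNA arm against the control arm at each day, one panel a day; bars are SE from the limma fit and filled points passed an adjusted p of 0.05. At day 0 the 2 filled points are negative, and at days 3, 5 and 7 the filled points are positive.

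Whether Ddx10 knockdown changed the group was read from the arms at matched days. At day 0, Tgfb3 and Tgfbi were lower in the knockdown. Tgfb3 was at 3425 and 3381 against 4461 and 4588 in the control (log2 fold change -0.41, SE 0.082, limma adjusted p = 0.0155), and Tgfbi at 121 and 118 against 178 and 216 (-0.71, SE 0.12, 0.00748). In both cases the arms did not overlap. They were the 2 of 10 genes called lower, beside 0.812% of all genes, and 0 were called higher, beside 2.49%. The values of Tgfb1 (913 and 953 against 1166 and 1177), Tgfb2 (678 and 641 against 751 and 874) and Ltbp2 (3316 and 3670 against 4864 and 4389) also did not overlap, without passing the test (limma adjusted p of 0.335, 0.186 and 0.438). The same held for Tgfbr2, at 3594 and 3570 against 4094 and 3979 (log2 fold change -0.17, limma adjusted p = 0.133). Here and below, the share of all genes whose arms did not overlap was not counted, so a lack of overlap is a description only. Tgfbr1 went the other way, at 1135 and 1015 against 795 and 808 (log2 fold change 0.42, SE 0.122, limma adjusted p = 0.0701). These day 0 calls are thin: the count was 0 without control day 0 replicate 2, and 1 without knockdown day 0 replicate 1 or 2, 1 with quantile scaling and 0 when only the libraries of day 0 were fitted. The summed fibroblast markers were 510740 to 544640 in the knockdown at day 0 against 601080 to 634380 in the control, and those of smooth muscle 163450 to 174450 against 204630 to 216110. Of the 17 fibroblast markers 1, Dcn, was called higher and 0 lower, and of the 8 smooth muscle markers 0 and 0. These counts are to be read against the same shares of all genes. The median log2 fold changes were -0.21 and -0.32. The part of these markers in the result was not tested.

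At day 1, when Ddx10 was lowest relative to the control, 0 of the 10 genes passed the test, beside 0.0254% of all genes higher and 0.121% lower. At an unadjusted p under 0.05 limma gave 2066 of all genes and none of the 10, whose smallest unadjusted p was 0.232 (Tgfb3). Even so, the arms did not overlap at this day for Tgfb3, Tgfbr2 and Thbs1. The 95% interval of the log2 fold change ran from -0.28 to 0.07 for Tgfb3, from -0.08 to 0.19 for Tgfbr2 and from -0.27 to 0.95 for Smad7, the widest interval of these 3.

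From day 3 the knockdown means lay above the control means for the 3 ligand genes, Tgfbr2, Tgfbr3, Thbs1 and Ltbp2, and part of these differences passed the test. At day 3, 3 of the 10 were called higher and 0 lower, beside 2.51% and 2.25% of all genes. They were Thbs1 (8674 and 9160 against 6844 and 5861, log2 fold change 0.49, limma adjusted p = 0.00595), Tgfbr2 (8505 and 8917 against 7224 and 7131, 0.28, 0.0197) and Tgfbr3 (530 and 579 against 406 and 394, 0.47, 0.0485). The arms did not overlap for any of the 3. At day 5, 4 were called higher and 0 lower, beside 5.83% and 2.90%. Tgfb1 led them, at 504 and 471 against 245 and 287 (0.88, SE 0.185, limma adjusted p = 0.00746), with Tgfb3 at 888 and 846 against 609 and 697 (0.41, 0.00501), Thbs1 at 8937 and 8626 against 6223 and 7035 (0.41, 0.00704) and Tgfbr2 at 7589 and 7653 against 6160 and 6726 (0.24, 0.0235). At day 7, 4 were called higher and 0 lower, beside 4.65% and 1.52%. Ltbp2 showed the widest gap, at 537 and 470 against 213 and 242 (1.14, SE 0.275, limma adjusted p = 0.0257), and Thbs1 (7134 and 8174 against 5764 and 5544, 0.43, 0.00627), Tgfb3 (670 and 695 against 505 and 575, 0.34, 0.0204) and Tgfbr2 (6243 and 7017 against 5519 and 5440, 0.27, 0.0156) passed again.

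The same genes did not pass the test at every day. At day 7, Tgfb1 was at 314 and 405 against 262 and 231 (0.53, limma adjusted p = 0.113), Tgfb2 at 693 and 664 against 532 and 534 (0.35, 0.122), and Tgfbr3 at 372 and 467 against 309 and 335 (0.37, 0.11). At day 5, Ltbp2 was at 589 and 543 against 219 and 442 (0.86, 0.073), Tgfbr3 at 495 and 491 against 362 and 416 (0.35, 0.115) and Tgfb2 at 655 and 647 against 488 and 637 (0.22, 0.316). At day 3, Tgfb1 was at 738 and 734 against 509 and 611 (0.40, 0.251) and Tgfb3 at 1111 and 1139 against 1028 and 955 (0.18, 0.231). The arms did not overlap in any of these 8 comparisons, but did at day 3 for Ltbp2 (697 and 825 against 793 and 456, 0.33, limma adjusted p = 0.57) and Tgfb2 (562 and 598 against 569 and 534, 0.07, 0.815). Without the share of all genes, such a lack of overlap is no result about these genes. Smad7 was the exception among the genes that had fallen: its knockdown libraries were at 304 and 307 at day 3, 207 and 279 at day 5 and 213 and 171 at day 7, against control values of 325 and 438, 244 and 326, and 226 and 203. Its fitted differences were negative at all 3 days (-0.30, -0.23 and -0.17) with limma adjusted p of at least 0.628. Tgfbr1 and Tgfbi overlapped between the arms at each of days 3, 5 and 7, with log2 fold changes between -0.06 and 0.05. Single-day calls rest on few libraries. Without 1 library the count fell at day 3 to 1 (control replicate 1 or knockdown replicate 1) or 0 (either replicate 2), at day 5 to 0 (either replicate 1), and at day 7 to 1 (either control replicate), 2 (knockdown replicate 1) or 0 (knockdown replicate 2). With quantile scaling, the 3 single-day calls of Thbs1 no longer passed the test at log2 fold changes of 0.45 each (limma adjusted p of 0.314 to 0.362), nor did Tgfbr2 at day 3 (0.19, 0.113).

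Averages over days gave narrower errors. As the mean of all 5 days, 5 of the 10 genes were higher in the knockdown and 1 lower, beside 10.3% and 7.46% of all genes: Ltbp2 (log2 fold change 0.41, SE 0.123, limma adjusted p = 0.0367), Tgfb1 (0.30, SE 0.083, 0.0203), Tgfbr3 (0.23, SE 0.057, 0.0105), Thbs1 (0.23, SE 0.038, 0.000812) and Tgfbr2 (0.14, SE 0.028, 0.0034) were higher and Tgfbi (-0.16, SE 0.054, 0.0454) lower. Since this mean joins a day 0 that was lower with later days that were higher, days 3, 5 and 7 were also averaged, a choice made after that pattern had been seen, so its p-values are no separate evidence. There, 7 of the 10 were higher and 0 lower, beside 12.2% and 7.96% of all genes. The ligand genes were 0.60 (Tgfb1, SE 0.107, limma adjusted p = 0.000883), 0.22 (Tgfb2, SE 0.071, 0.0444) and 0.31 (Tgfb3, SE 0.047, 0.000234) on the log2 scale. The receptor genes Tgfbr2 and Tgfbr3 were at 0.27 (9.17e-05) and 0.40 (0.00127), Thbs1 at 0.45 (1.5e-05) and Ltbp2 at 0.78 (0.00349). Smad7 at -0.23 (95% interval -0.59 to 0.12), Tgfbr1 at 0.02 (-0.13 to 0.17) and Tgfbi at -0.01 (-0.16 to 0.14) did not pass. The median of the 10 genes was 0.29 and that of all genes -0.01. In the mean of days 3, 5 and 7, 6 of the 7 calls held without any 1 of the 12 libraries, and Tgfb2 was lost without 11 of them (limma adjusted p up to 0.149). In the mean of all days the calls of Ltbp2 and Tgfbi were lost without 14 and 15 of the 20 libraries (up to 0.0759 and 0.101).

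The question of whether the arms changed differently from day 0 to day 7 was put to the difference between the 2 changes, which uses the same day 0 and day 7 libraries as the tests above. For 6 of the 10 genes a positive difference passed the test and for 0 a negative one, beside 3.92% and 2.46% of all genes; a positive value means that the knockdown fell less or rose more. Ltbp2 had the largest value, 1.55 (SE 0.389, limma adjusted p = 0.0335), as it fell 20.4-fold in the control and 6.94-fold in the knockdown. Tgfb3 followed its course with 8.38-fold against 4.99-fold, a difference of 0.75 (SE 0.116, 0.00204), and Thbs1 with 40.3-fold against 28.0-fold, 0.52 (SE 0.121, 0.0202). Tgfb2 was at 65.6% of its day 0 mean in the control and 103% in the knockdown (0.64, SE 0.175, 0.0402), and Tgfbr2 136% and 185% (0.44, SE 0.0883, 0.00968). Tgfbi rose 4.59-fold in the control and 7.85-fold in the knockdown (0.76, SE 0.17, 0.0168), from arms that did not overlap at day 0 to arms that did at day 7. Tgfb1, with a difference of 0.86 (SE 0.261), did not pass (limma adjusted p = 0.0639), nor did Tgfbr3 (0.43, 0.172), Tgfbr1 (-0.43, 0.15) and Smad7 (-0.03, 0.976). The median over the 10 genes was 0.58, against 0.02 over all genes. Without 1 library the count ranged from 2 to 4: it was 2 without either control day 7 library, knockdown day 0 replicate 1 or knockdown day 7 replicate 2, and 3 without control day 0 replicate 2 or knockdown day 7 replicate 1. The call of Tgfb3 held without each of the 8 libraries, that of Ltbp2 was lost without any 1 of them, and with quantile scaling the value of Thbs1 was -0.15 (limma adjusted p = 0.868).

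**Figure D4:**
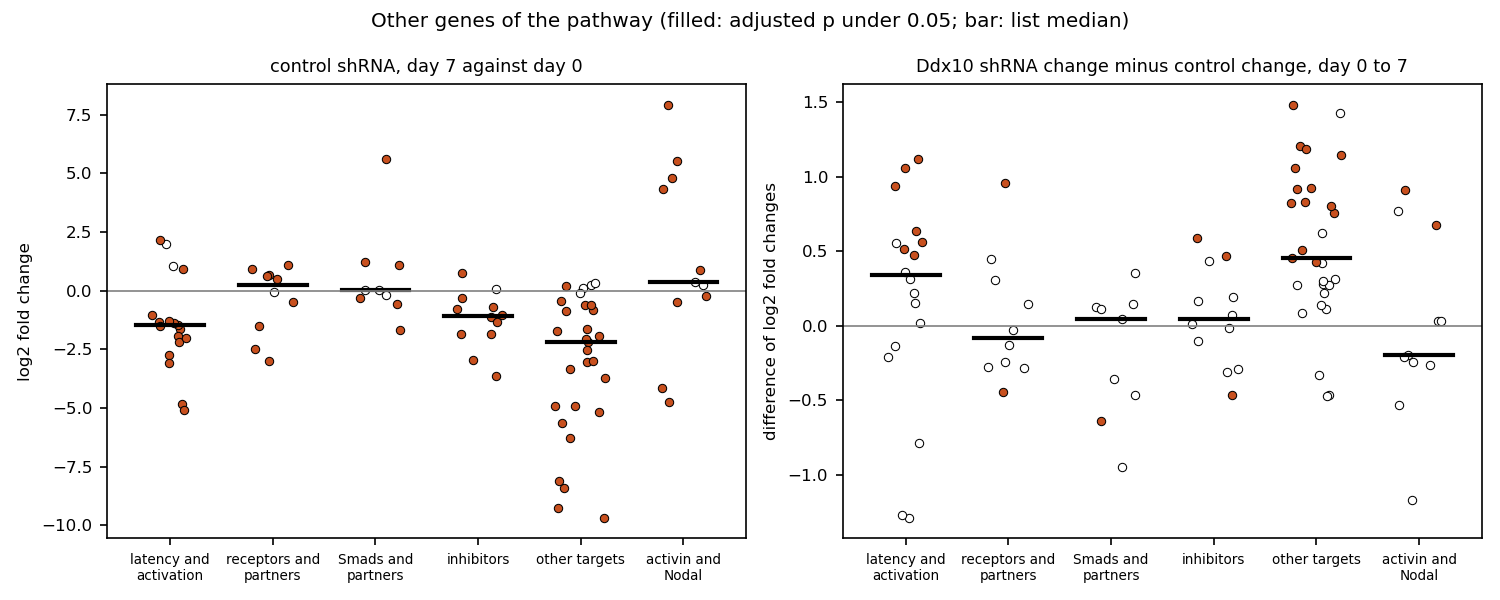
Other genes of the pathway in 6 lists: log2 fold change from day 0 to day 7 in the control (left) and the difference between arms in that change (right); each point is a gene, filled where the limma adjusted p was under 0.05, and bars are list medians. The list of other targets has its median at -2.19 on the left and at 0.45 on the right.

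Other genes of the pathway were described from 6 lists. Of 18 genes of latency and activation, 2 rose and 14 fell in the control from day 0 to day 7, beside 38.6% and 33.7% of all genes, with a median log2 fold change of -1.48. Bgn, biglycan, a proteoglycan that binds TGF-beta, went from 65890 ± 674 to 2318 ± 0.21 (SD, n = 2), Itgb1, the integrin beta 1 subunit, from 43780 ± 1720 to 9733 ± 153, and Adamts1, a secreted protease, from 9777 ± 235 to 1155 ± 13. As the mean of days 3, 5 and 7, 11 of the 18 were called higher in the knockdown and 0 lower, beside 12.2% and 7.96% of all genes, and in the difference between arms 7 and 0, beside 3.92% and 2.46%. Fbn1, the fibrillin to which latent complexes attach, was 0.28 higher (SE 0.041, limma adjusted p = 0.000319), Itgb1 0.24 (SE 0.032, 0.000122) and Dcn, decorin, 0.28 (SE 0.052, 0.00168) as the mean of all days.

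The list of 29 other TGF-beta targets had 1 gene higher and 24 lower in the control at day 7, beside 38.6% and 33.7% of all genes, with a median of -2.19. Tagln, a smooth muscle actin-binding protein, fell from 55380 ± 2550 to 88.9 ± 9.92 (SD, n = 2), and Ctgf, connective tissue growth factor, from 51870 ± 6310 to 670.2 ± 10.2. At day 7 the knockdown held 199 ± 17.4 for Tagln and 1287 ± 79.6 for Ctgf. In all, 19 of the 29 were higher and 1, Vegfa, lower in the knockdown as the mean of days 3, 5 and 7, beside 12.2% and 7.96% of all genes. In the difference between arms, 14 passed the test with a positive and 0 with a negative value, beside 3.92% and 2.46%. As the mean of all days, Lox, which cross-links collagen, was 0.45 higher (SE 0.037, limma adjusted p = 2.51e-06), Ctgf 0.44 (SE 0.042, 7.06e-06) and Tnc, tenascin C, 0.42 (SE 0.041, 8.07e-06). Since 8 of these 29 genes are also in the cell type marker lists, the 21 others were counted apart, a count added with the values known. They gave 1 called higher and 18 lower in the control, 15 and 1 as the mean of days 3, 5 and 7, and 10 and 0 in the difference, to be read against the same shares of all genes.

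In a list of 12 regulators of Smad signalling, most of them inhibitors, 10 fell with Smad7 in the control and 1 rose, beside 33.7% and 38.6% of all genes. Smad6 went from 1135 ± 53.0 to 90.9 ± 7.56, Pmepa1, which sequesters Smad2 and Smad3, from 2512 ± 98.2 to 327 ± 86.5, and Smurf1, a ubiquitin ligase for Smads and receptors, from 3552 ± 183 to 987 ± 3.01 (SD, n = 2). The knockdown split this list, 3 higher (Smurf1, Nedd4l and Ski) and 2 lower (Tgif1 and Tgif2) as the mean of days 3, 5 and 7, beside 12.2% and 7.96%. In the difference between arms, 2 of the 12 were higher and 1 lower, beside 3.92% and 2.46% of all genes. Smurf1 was 0.24 higher as the mean of all days (SE 0.032, limma adjusted p = 0.000121), Nedd4l 0.21 (SE 0.034, 0.000555) and Ski 0.13 (SE 0.030, 0.00517). The Smad transducers and partners showed 3 genes higher and 3 lower of 9 in the control, near the 38.6% and 33.7% of all genes. Trim33, a ubiquitin ligase that binds Smad4 and receptor-activated Smads, went from 662.5 ± 26.6 to 1562 ± 72.3, Dab2, an endocytic adaptor, from 3279 ± 458 to 1032 ± 143, and Foxh1, the partner of Smad2 in Nodal signalling, from 0.659 ± 0.932 to 74.4 ± 9.02. In the knockdown 0 of the 9 were higher and 1, Foxh1, lower as the mean of days 3, 5 and 7, beside 12.2% and 7.96% of all genes (log2 fold change -1.07, SE 0.325, limma adjusted p = 0.0299), and its level at day 7 was 24.6 ± 1.96. The difference between arms gave 0 higher and 1, Trim33, lower, beside 3.92% and 2.46% of all genes. As the mean of all days Usp9x, a deubiquitinase of Smad4, was 0.28 higher (SE 0.055, limma adjusted p = 0.00289), while Foxh1 at -0.67 (0.0824) and Hipk2 at 0.08 (0.299) did not pass.

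Among 10 receptor partners and other receptors of the family, 5 rose and 4 fell in the control, near the 38.6% and 33.7% of all genes. Acvrl1, the type I receptor ALK1, fell from 672 ± 27.0 to 82.9 ± 8.29, Acvr1 from 1557 ± 129 to 547 ± 54.6 and the decoy receptor Bambi from 324 ± 5.06 to 56.2 ± 0.892 (SD, n = 2). In the knockdown 3 were higher and 1 lower as the mean of days 3, 5 and 7, beside 12.2% and 7.96%. The difference between arms gave 1 higher and 1 lower, beside 3.92% and 2.46% of all genes, with a median of -0.08. Acvrl1 was 0.34 higher as the mean of all days (SE 0.075, limma adjusted p = 0.00542), Bmpr2 0.20 (SE 0.046, 0.00681) and Acvr1 0.18 (SE 0.044, 0.0105). The activin and Nodal branch, 11 genes in the table, showed 5 higher and 4 lower in the control, again near the shares of all genes, 38.6% and 33.7%. Inhba, the activin A subunit, went from 2330 ± 536 to 84.9 ± 13.4 and Fstl3, an activin-binding protein, from 1310 ± 2.67 to 73.1 ± 13.6, whereas Gdf3, a ligand of pluripotent cells, went from 1.32 ± 1.86 to 454.5 ± 9.67. As the mean of days 3, 5 and 7, 3 of the 11 were higher in the knockdown and 2 lower, beside 12.2% and 7.96%. In the difference between arms 2 were higher and 0 lower, beside 3.92% and 2.46% of all genes, with a median of -0.19. As the mean of all days Inhba was 0.62 higher (SE 0.069, limma adjusted p = 2.83e-05), and Gdf15 at -0.35 (SE 0.041, 4.84e-05) and Fst, follistatin, at -0.24 (SE 0.047, 0.00238) were lower.

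Cell type markers moved beside the knockdown differences of the TGF-beta genes. At day 7 the 17 fibroblast markers summed to 144760 to 166720 in the knockdown against 134850 to 141230 in the control, with 6 called higher and 0 lower, where 4.65% of all genes were called higher and 1.52% lower. The 8 smooth muscle markers summed to 1167 to 1457 against 701 to 752, with 4 higher and 0 lower, and the 13 epithelial markers to 16453 to 17225 against 26759 to 29145, with 0 higher and 4 lower. The 13 pluripotency markers summed to 7880 to 8857 against 6535 to 7139, with 1 higher and 0 lower, while their median log2 fold change was -0.37. The 14 macrophage and blood markers summed to 1472 to 1557 against 1290 to 1298, with Tyrobp, C1qa and Fcer1g at 0 in both control libraries and C1qc at 0 in both knockdown libraries, and the 8 endothelial markers to 3203 to 3258 against 3300 to 3345. Apart from those 4, no marker of these lists was at 0 in both libraries of either group. The part of these markers in the higher Tgfb1, Tgfb3, Tgfbr2, Thbs1 and Ltbp2 levels was not tested.

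The genes most like each ligand gene were found by the correlation of mean log2 values over the 10 groups, among 12061 genes with a mean of at least 50. For Tgfb3 they were Mrpl10 (r = 0.997), Sidt2 (0.995) and Lasp1 (0.995), and for Tgfb1 Snhg18 (0.992), Lrp1 (0.991) and Rin1 (0.989). Tgfb2, with its smaller changes, had Xrcc6bp1 (0.937), Snx8 (0.888) and Dennd2a (0.888). The 10 points of each correlation come from the same libraries and the same course of days, and the values are given as a description.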

How the data were processed

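The values are signal of the kind the authors deposited as normalized read counts per gene, 1 table of 15757 genes and 20 libraries. The mm10 genome, DESeq2 1.22.0, RSEM 1.2.22, STAR 2.5.2a and Trim Galore 0.4.4 are named in the submitters' processing notes, without roles or order; the normalization step, strand setting and gene filter are not given in the sources used here. Of the low values, 40.2 to 63.3% lie within 0.1 of a whole step, so whole reads were not recovered and depths are approximate.

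All 20 libraries entered 1 limma 3.58.1 fit (R 4.3.3) on log2(value + 1) with a mean for each of the 10 groups and 10 residual degrees of freedom, moderated by robust empirical Bayes with a trend. P-values were adjusted by Benjamini and Hochberg over 15757 genes, with a threshold of 0.05; a filter of at least 1 in 2 libraries removed 0 genes. Fold changes on the log2(value + 1) scale understate changes of low genes, and the script was tested on simulated data. Levels per kb use exon lengths of GENCODE gene models, in which 99.4% of identifiers were found. A mean ± SD is over 2 libraries.

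The 10 genes, the pathway and marker lists and the tests were chosen with earlier results of these data known. The rule named the 10 genes, the 3 genes most like each ligand gene, and the 3 genes of each pathway list with the smallest p in the control from day 0 to day 7 and in the mean of all days; further list members named in the text were chosen after their values were seen. A gene that the rule gives is not reported here. Alternatives covered scaling, pseudocount, filter, library weights, a replicate block, plain empirical Bayes, the compared libraries alone and leaving out each library.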

Additional observations from a re-analysis of the deposited data

Results flagged for a closer look

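The change from day 0 to day 7 differed between the control and the Ddx10 knockdown, by the test of the difference itself (limma, adjusted over all genes), for 6 of the 10 genes. The knockdown minus control difference of log2 changes was 1.55 for Ltbp2 (adjusted p = 0.0335), 0.76 for Tgfbi (0.0168), 0.75 for Tgfb3 (0.00204), 0.64 for Tgfb2 (0.0402), 0.52 for Thbs1 (0.0202) and 0.44 for Tgfbr2 (0.00968). Without 1 library the count ranged from 2 to 4; the call of Ltbp2 was lost without any 1 of the 8 libraries and that of Tgfb3 held without each. With quantile scaling the value of Thbs1 was -0.15 (adjusted p = 0.868). At the single days behind this difference, Tgfbr2, Tgfb3, Thbs1 and Ltbp2 were called higher in the knockdown at day 7 and Tgfb3 also lower at day 0, while Tgfbi was called lower at day 0 alone and Tgfb2 at neither day.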

How the results depend on the processing

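Of 77 called results of the 10 genes over the 13 comparisons, 77 kept their direction and call with median-of-ratios scaling, a pseudocount of 5, a stricter filter and no filter, 76 with a pseudocount of 0.1, 73 with library weights, 69 with quantile scaling and 68 with plain empirical Bayes. Fits of the compared libraries alone kept 66 of 71; for the mean of all days they equal the reported fit. The reversed result was the difference between arms of Thbs1, -0.15 with quantile scaling. Counts of called genes that moved by over 1.5 times were those of quantile scaling (1 at day 0 and 1 at day 3), library weights (7 at day 7), plain empirical Bayes (1 at day 3 and 3 in the difference between arms) and the compared libraries alone (0 at day 0). Without 1 library the counts ranged from 0 to 2 at day 0, 0 to 1 at day 3, 0 to 5 at day 5, 0 to 2 at day 7 and 2 to 4 in the difference, with the lone library of a group assumed to vary like the other groups; 51 of the 77 calls held in every such fit and 26 were lost in at least 1. The causes were not tested.

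The replicate numbers share no stated origin, and replicate differences of the 2 arms correlated across genes at -0.14 to 0.18 by day. With a replicate block 73 of 77 calls were kept, and those lost were Tgfbr3 at day 3 (0.47, adjusted p = 0.0541), Tgfbi in the mean of all days (-0.16, 0.0509), and Tgfb2 in the difference (0.64, 0.0535) and in the mean of days 3, 5 and 7 (0.22, 0.0557). With 2 libraries a group, the median SE over all genes was 0.156 (log2) at 1 day and 0.22 in the difference, which limits what could be seen in Smad7, Ltbp2 and other genes of wide spread.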

Other observations

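The lists of other TGF-beta genes were also counted by day, from the same limma fit. Of the 29 other targets, 1 was higher and 1 lower in the knockdown at day 0, 0 and 0 at day 1, 9 and 0 at day 3, 13 and 0 at day 5, and 13 and 1 at day 7. The shares of all genes called higher and lower were 2.49% and 0.812% at day 0, 0.0254% and 0.121% at day 1, 2.51% and 2.25% at day 3, 5.83% and 2.90% at day 5, and 4.65% and 1.52% at day 7. The median log2 fold change of the 29 was -0.17 at day 0 and 0.45 at day 5, where that of all genes was -0.02 and -0.01. Of the 18 genes of latency and activation, 1 was higher and 0 lower at day 0, 0 and 0 at day 1, 2 and 0 at day 3, 6 and 1 at day 5, and 4 and 1 at day 7, to be read against the same shares. The remaining lists follow in the same order of days. The 10 receptors and partners gave 1 and 0, 0 and 0, 1 and 0, 1 and 1, 1 and 0. The 9 Smads and partners gave 2 and 0, then 0 and 0 at each later day. The 12 regulators of Smad signalling gave 1 and 0, 0 and 0, 2 and 0, 3 and 1, 3 and 0. The 11 activin and Nodal genes gave 0 and 1, 0 and 0, 1 and 1, 2 and 2, 1 and 2. Lrrc32, also known as GARP, a membrane anchor of latent TGF-beta, had a difference between arms of 1.06 (SE 0.163, limma adjusted p = 0.00209), and Sphk1, sphingosine kinase 1, was 1.03 higher in the knockdown as the mean of days 3, 5 and 7 (SE 0.109, limma adjusted p = 9.31e-06). Both were chosen after their values were seen.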
